A study of Mus musculus with 56 samples.

Results

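The growth hormone and IGF axis was followed in liver RNA through 10 genes: the receptor Ghr, the transcription factors Stat5b and Bcl6, the feedback inhibitors Socs2 and Cish, the hormone Igf1, its carrier subunit Igfals, and the binding proteins Igfbp2, Igfbp3 and Igfbp4. They were chosen by name, matched to the Ensembl identifiers of the count files through GENCODE vM21, and are 10 of the 45513 genes listed. All 10 passed the filter on low counts and were among the 14314 genes tested. The 56 livers came from female APOE*3Leiden.CETP mice, which carry a construct with the human APOE*3Leiden and APOC1 genes and a human CETP gene under its natural flanking regions. They were 9 to 14 weeks old on entering the study, and the livers were taken after a run-in on the diet and the treatment. Every group, control included, ate a Western-type diet with 15% cacao butter and 0.15% cholesterol and was gavaged with 5% carboxymethyl cellulose as the vehicle. For 16 weeks, groups of 8 mice received vehicle alone (control) or a drug. Imatinib was given at 150 mg/kg in each of 2 daily gavages. Nilotinib (10 or 30 mg/kg) and ponatinib (3 or 10 mg/kg) were given in 1 daily gavage, followed by a second gavage of vehicle. A further 8 mice had vehicle gavages and 0.12% to 0.2% L-NAME, an inhibitor of nitric oxide synthases, in their drinking water. The 3 drugs are inhibitors of the BCR-ABL1 tyrosine kinase.

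Growth hormone from the pituitary binds its receptor on hepatocytes, and the kinase JAK2 bound to that receptor then phosphorylates STAT5B, which enters the nucleus and switches on target genes. The liver answers by secreting IGF1, which circulates in a complex with the acid-labile subunit and an IGF-binding protein, and by making the inhibitors SOCS2 and CISH, which damp the same signal. The pulse pattern of growth hormone differs between the sexes, and with it the expression of many liver genes. BCL6 is a repressor that can occupy the same sites as STAT5 and is expressed more in male than in female mouse liver.

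Reads counted on genes ranged from 5342379 to 17996732 per mouse, apart from 1 L-NAME library with 97473341. All 12 hepatocyte markers were detected in every group, with a summed level of 75123 to 161585 CPM, read counts scaled to a common library size, per mouse. The share of uniquely aligned reads that lay outside annotated genes was 7.97% ± 0.42 in control livers and higher in all 6 treated groups, from 8.53% ± 0.61 with ponatinib 3 mg/kg (adjusted p = 0.0466) to 11.04% ± 1.99 with ponatinib 10 mg/kg (adjusted p = 0.00023, exact permutation tests, SD over 8 mice). Over the 56 mice, with group means removed, that share had an adjusted permutation p of 0.993 with all 10 genes by Pearson's r. By Spearman's rho the lowest was that of Igfbp2 (rho = 0.31, permutation p = 0.026, adjusted p = 0.26). Pearson's r of Igfbp2 with the share was 0.17, and 0.33 without the 2 farthest mice. The share entered a further fit as a covariate, which cannot fully separate its part in the group differences from that of treatment. All 8 livers of nilotinib 10 and 30 mg/kg, ponatinib 10 mg/kg and L-NAME, and 6 of 8 with imatinib, exceeded every control in this share. Levels below are CPM after TMM scaling, edgeR's correction for RNA composition. Differences are log2 fold changes from edgeR's quasi-likelihood test with their standard error (SE), called at a Benjamini-Hochberg adjusted p below 0.05 over all genes tested.

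Of the 10 genes, Igfbp2 and Igfbp3 passed the test against control by edgeR. Igfbp2 was called higher with imatinib and with L-NAME, and Igfbp3 lower with imatinib. Both Igfbp2 calls were lost with the share of reads outside genes as a covariate (adjusted p = 0.105 and 0.181), and the Igfbp3 call was lost in 8 of the 16 fits that left out 1 mouse. The calls were thus 2 of 10 genes with imatinib, where 10.3% of all genes tested were called, and 1 of 10 with L-NAME, where 11.8% were. DESeq2 called 2 with imatinib and 3 with L-NAME, where it called 1817 and 2079 of 24040 genes. Limma with sample weights called 4 and 4, where it called 3327 and 3737 of 14314 genes. No gene of the axis was called by edgeR with nilotinib 10 mg/kg (1.41% of all genes called), nilotinib 30 mg/kg (5.77%), ponatinib 3 mg/kg (0.0419%) or ponatinib 10 mg/kg (13.1%). At an unadjusted p below 0.05, 4 of 10 passed with nilotinib 10 mg/kg (14.2% of all genes), 2 with nilotinib 30 mg/kg (18.7%), 2 with ponatinib 3 mg/kg (9.96%) and 1 with ponatinib 10 mg/kg (25.8%). In these 4 comparisons DESeq2 called 2, 0, 0 and 0 of the 10, and 512, 1201, 46 and 2237 of 24040 genes. Limma with sample weights called 4, 1, 0 and 1 of the 10, and 1240, 2349, 571 and 3743 of 14314 genes. The 6 comparisons share their 8 control mice, so a control group that lay low or high by chance moves all 6 the same way. The median log2 fold change of the 10 genes lay between 0.047 with L-NAME and 0.22 with imatinib, against 0.019 and -0.022 for all genes tested.

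Per kilobase of exon, in control livers, Igfbp4 had the highest level of the 10 genes, at 344 ± 63.4 CPM per kilobase (SD, n = 8), followed by Igfbp2 at 185 ± 78.3. Next came Ghr at 48.2 ± 6.30, Igf1 at 41.1 ± 7.50 and Igfals at 38.2 ± 9.60 CPM per kilobase, 3 levels whose SDs overlap. Stat5b at 14.3 ± 3.10 and Igfbp3 at 12.2 ± 2.77 also overlapped with each other. The lowest levels, all within their spread, were those of Cish at 4.16 ± 2.84, Bcl6 at 2.52 ± 1.88 and Socs2 at 2.47 ± 1.43 CPM per kilobase. Reads on Bcl6 numbered as few as 20 in a liver, those on Socs2 21 (control mouse 12) and those on Cish 51. These genes thus carry more counting error than the others in such livers. The spread between control mice was also uneven, with an SD of 13.1% of the mean for Ghr and 74.7% for Bcl6.

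**Figure D1:**
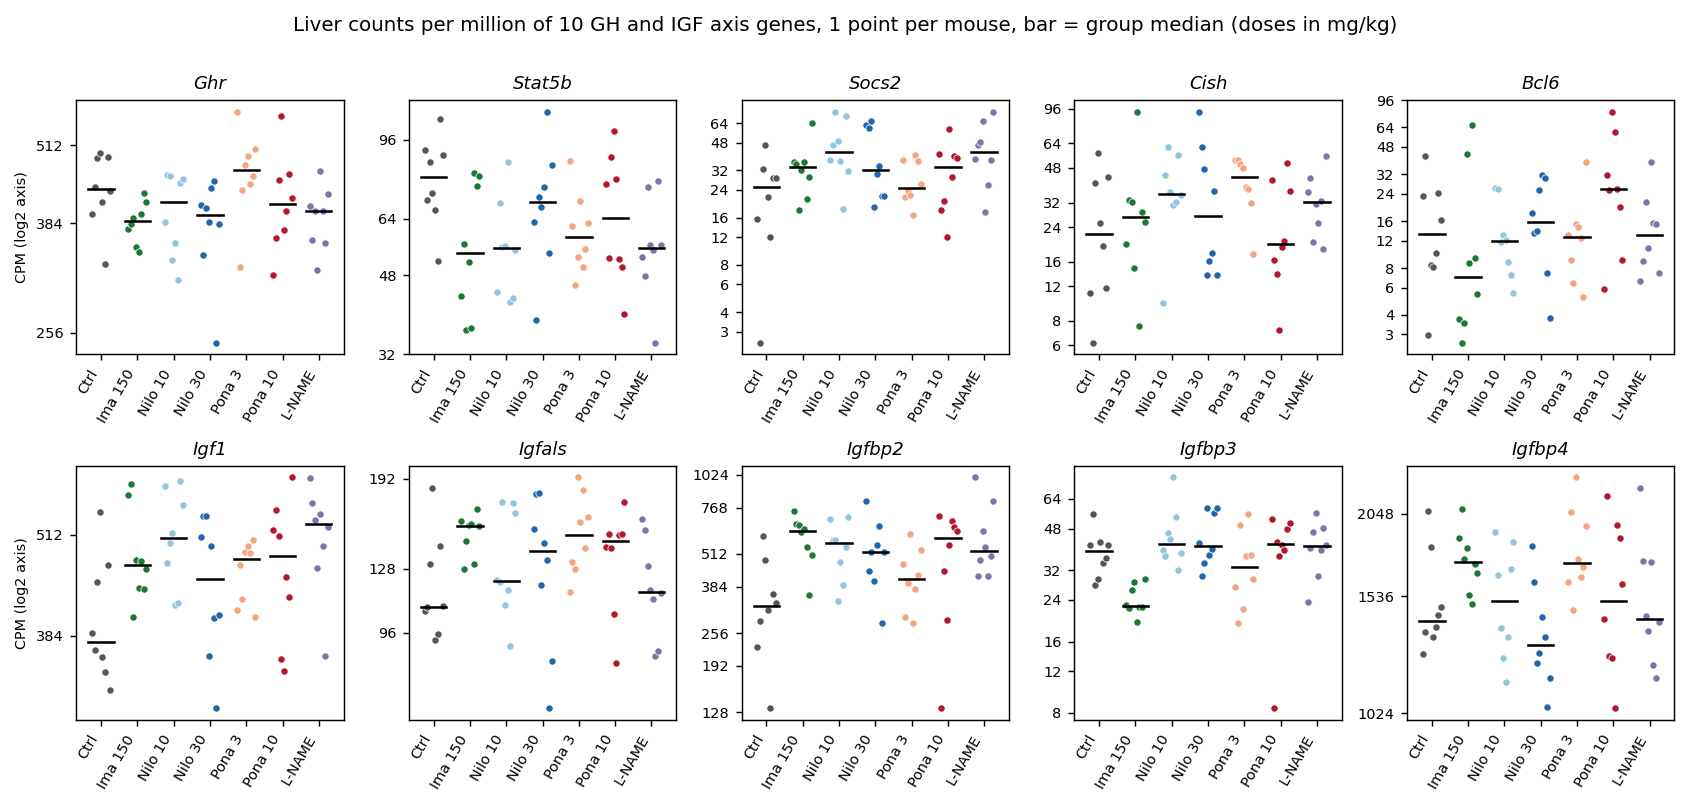
CPM of each of the 10 genes on log2 axes in the 7 groups, with 1 point per mouse and a bar at the group median. The imatinib points of Igfbp3 lie between 19.4 and 29.5 CPM, 6 of the 8 under every control mouse, and 5 of the 8 imatinib points of Igfbp2 lie above every control mouse.

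Ghr (chromosome 15, 3317760 to 3583492, minus strand, GRCm38) encodes the growth hormone receptor and varied least of the 10 genes among control livers. Its lowest, median and highest levels were 329.8, 435 and 498 CPM in control livers and 345, 387 and 429.7 CPM with imatinib. All 8 imatinib livers lay under the control median, yet inside the control range, and the difference was not called (log2 fold change -0.18 ± 0.11 SE, adjusted p = 0.351). With ponatinib 3 mg/kg the 3 values were 327, 467 and 580.1 CPM. Across the 6 comparisons the log2 fold change of Ghr ran from -0.19 with nilotinib 30 mg/kg to 0.090 with ponatinib 3 mg/kg, and the lowest adjusted p was 0.351. From mouse to mouse, with group means removed, Ghr followed the hepatocyte markers (Pearson's r = 0.64, permutation p = 1e-05, adjusted p = 0.00015, Spearman's rho = 0.64, permutation p = 1e-05, adjusted p = 0.00015, positive in all 7 groups, 0.60 without the 2 farthest mice). It ran opposite to the lymphocyte and granulocyte markers (Pearson's r = -0.66, permutation p = 1e-05, adjusted p = 0.00015, Spearman's rho = -0.71, permutation p = 1e-05, adjusted p = 0.00015, negative in all 7 groups, -0.63 without the 2 farthest mice). These are 2 of 60 relations between a gene and a marker list, and 1e-05 is the smallest p that 100000 permutations can give.

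Stat5b (chromosome 11, 100780731 to 100850724, minus strand), the transcription factor that the receptor activates, had a lower mean than control in all 6 groups, and no difference was called by edgeR. Control livers had 51.7, 79.5 and 107 CPM at the lowest, median and highest. With imatinib the values were 36.3, 53.8 and 81.0 CPM, and 4 of 8 livers were under every control (log2 fold change -0.46 ± 0.19 SE, adjusted p = 0.111). Nilotinib 10 mg/kg gave 41.7, 55.1 and 85.8 CPM (log2 fold change -0.50 ± 0.19 SE, adjusted p = 0.175). L-NAME gave 33.9, 55.2 and 77.6 CPM, all 8 under the control median (log2 fold change -0.49 ± 0.19 SE, adjusted p = 0.0846). Limma with sample weights called Stat5b in these 3 comparisons, with adjusted p = 0.0136, 0.0303 and 0.043. The fit to only the 2 groups compared called it with L-NAME (adjusted p = 0.0325). So did edgeR without L-NAME mouse 26 (log2 fold change -0.56, adjusted p = 0.0489) or without mouse 50 (-0.57, adjusted p = 0.0478). These were 2 of 16 fits without 1 mouse, and the highest adjusted p among the 16 was 0.191. Mouse 50 was the L-NAME liver with the most Stat5b. The higher nilotinib dose gave a log2 fold change of -0.17, and ponatinib gave -0.39 at 3 mg/kg and -0.24 at 10 mg/kg.

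Socs2 (chromosome 10, 95385362 to 95417180, minus strand) encodes a feedback inhibitor of the growth hormone receptor and is a known target of STAT5. Its mean was 23.5 ± 13.6 CPM in control livers (SD, n = 8), 45.7 ± 19.4 with nilotinib 10 mg/kg and 44.2 ± 19.2 with L-NAME. Single control livers ranged widely, with 2.55, 25.1 and 46.4 CPM at the lowest, median and highest. The 8 livers of nilotinib 10 mg/kg had 18.2, 41.8 and 75.7 CPM, 4 of them above every control (log2 fold change 0.96 ± 0.33 SE, adjusted p = 0.112). The L-NAME livers had 17.3, 42.0 and 75.0 CPM, 3 above every control (log2 fold change 0.92 ± 0.33 SE, adjusted p = 0.0549). RLE scaling, DESeq2 and limma with sample weights called the L-NAME difference, with adjusted p = 0.0466, 0.0406 and 0.0113, and limma also called that of nilotinib 10 mg/kg (adjusted p = 0.0154). Without control mouse 22 or 28, or without L-NAME mouse 38 or 45, the adjusted p of the L-NAME difference lay between 0.0186 and 0.0456. The log2 fold changes there were 1.00 to 1.13. These were 4 of 16 fits without 1 mouse, and the highest adjusted p among the 16 was 0.146. Mouse 28 was the control with the most Socs2 and mouse 38 the L-NAME liver with the least. The other groups had log2 fold changes of 0.54 (imatinib), 0.74 (nilotinib 30 mg/kg), 0.26 and 0.44 (ponatinib 3 and 10 mg/kg), with adjusted p of at least 0.19.

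Cish (chromosome 9, 107296026 to 107302784, plus strand) encodes a second inhibitor of the same family, and Bcl6 (chromosome 16, 23965052 to 23988852, minus strand) a repressor that binds many of the sites that STAT5 binds. Both varied several-fold between mice of the same group, and neither was called by edgeR in any comparison. Cish had 6.19, 22.1 and 57.0 CPM at the lowest, median and highest in control livers and 17.5, 43.2 and 52.9 CPM with ponatinib 3 mg/kg, the group with the largest log2 fold change (log2 fold change 0.63 ± 0.39 SE, adjusted p = 0.622). Exons of Cish overlap the antisense genes Gm17040 and Gm17041 over 261 and 479 bases, and reads from the 2 strands could not be told apart. Bcl6 had 2.96, 13.2 and 42.0 CPM in control livers and 5.90, 25.6 and 81.0 CPM with ponatinib 10 mg/kg, where 2 livers, at 60.1 and 81.0 CPM, exceeded every control (log2 fold change 0.94 ± 0.51 SE, adjusted p = 0.247). Between the ponatinib doses the log2 fold change of Bcl6 was 1.18 ± 0.52 SE (adjusted p = 0.269). In the imatinib group 2 livers had 43.6 and 66.6 CPM of Bcl6 while the other 6 had at most 9.23 CPM, and leaving out single mice moved the log2 fold change between -0.61 and 0.42.

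Cish and Bcl6 moved in opposite directions from mouse to mouse, and Cish and Socs2 together. With group means removed, Cish and Bcl6 had Pearson's r = -0.56, permutation p = 9e-05, adjusted p = 0.00068, Spearman's rho = -0.55, permutation p = 5e-05, adjusted p = 0.00045, over 56 mice and among 45 pairs of axis genes. Within the 7 groups r ran from -0.80 to -0.065, and without the 2 mice farthest from the median it was -0.58. In the control group, the liver with the most Bcl6 (mouse 12, 42.0 CPM) had the least Cish (6.19 CPM) and the least Socs2 (2.55 CPM), and in the ponatinib 10 mg/kg group mouse 18 had the most Bcl6 (81.0 CPM), the least Cish (7.21 CPM) and the least Socs2 (12.0 CPM). Socs2 and Cish had Pearson's r = 0.59, permutation p = 2e-05, adjusted p = 0.00018, Spearman's rho = 0.56, permutation p = 6e-05, adjusted p = 0.00045. Their r within groups ran from -0.10 to 0.81, and was 0.51 without the 2 farthest mice.

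STAT5 is known to bind the letters TTCNNNGAA, which read the same on both strands. In the RefSeq promoters of GRCm38.p6, from 250 bases before to 50 after each start, the letters occurred in 8.30% of 32851 promoters. Promoters were matched for 9 of the 10 genes, Socs2 excepted, and 5 of their 15 promoters, of 3 genes, held the letters. They stood in promoters of Cish, Bcl6 and Igfals, and in none of those of Ghr, Stat5b, Igf1, Igfbp2, Igfbp3 or Igfbp4. Several of these genes have more than 1 promoter, and the share of all genes with the letters was not counted. Cish had 2 matches, from bases 1 and 12 after its start, at chr9:107296649-107296678 on the plus strand, and 0.457% of all promoters held 2 or more. Bcl6 had 1 match upstream of one start, at chr16:23988952-23988980 on the minus strand, and 3 upstream of the other, at chr16:23981353-23981461, and 0.0335% of all promoters held 3 or more. Igfals had 1 match upstream of each of 2 starts, at chr17:24877598-24877626 and chr17:24878163-24878191 on the plus strand. A further Igfals promoter held none. A match is a description of letters and no evidence of binding in these livers. The stretches that hold the matches are given 5′ to 3′ on the gene's strand, with the matches in capitals.
Cish: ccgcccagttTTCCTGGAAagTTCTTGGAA
Bcl6, first start: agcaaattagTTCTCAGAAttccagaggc
Bcl6, second start: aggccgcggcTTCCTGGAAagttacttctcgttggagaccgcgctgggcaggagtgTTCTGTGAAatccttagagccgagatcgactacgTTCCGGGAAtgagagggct
Igfals, first start: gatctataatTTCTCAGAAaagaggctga
Igfals, second start: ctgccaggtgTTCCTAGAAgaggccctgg

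Igf1 (chromosome 10, 87858265 to 87937042, plus strand) encodes the hormone IGF1, for which the liver is the main source in blood. Its mean lay above control in all 6 groups, and none of the differences was called by edgeR. Control livers had 329, 378 and 546 CPM at the lowest, median and highest. Nilotinib 10 mg/kg gave 419, 508 and 596 CPM, all 8 livers above the control median (log2 fold change 0.32 ± 0.12 SE, adjusted p = 0.149). L-NAME gave 362, 529 and 603 CPM, 7 of 8 above that median (log2 fold change 0.33 ± 0.12 SE, adjusted p = 0.0549). The groups overlapped throughout, and 1 control (mouse 28, 545.6 CPM) exceeded the median of every treated group. For L-NAME, RLE scaling (adjusted p = 0.0401), DESeq2 (0.0205) and limma with sample weights (0.0476) called Igf1. So did edgeR without control mouse 22 (0.0484), control mouse 28 (0.02) or L-NAME mouse 50 (0.026), at log2 fold changes of 0.35, 0.39 and 0.38. These were 3 of 16 fits without 1 mouse, and the highest adjusted p among the 16 was 0.134. Mouse 28 was the control with the most Igf1 and mouse 50 the L-NAME liver with the least. For nilotinib 10 mg/kg, DESeq2 (adjusted p = 0.045) and limma (0.0177) called it. With imatinib the log2 fold change was 0.25 ± 0.12 SE (adjusted p = 0.18, and 0.0413 by limma), while the higher nilotinib dose gave 0.13 and the ponatinib doses gave 0.18 (3 mg/kg) and 0.21 (10 mg/kg).

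Igfals (chromosome 17, 24865997 to 24882010, plus strand) encodes the acid-labile subunit, which holds IGF1 and its binding protein in the circulating complex. Control livers had 93.0, 108 and 184 CPM at the lowest, median and highest. All 8 livers with imatinib (128, 156 and 167 CPM) and all 8 with ponatinib 3 mg/kg (116, 149 and 193 CPM) exceeded the control median, without passing the test (log2 fold change 0.31 ± 0.16 SE, adjusted p = 0.228 for imatinib and log2 fold change 0.33 ± 0.16 SE, adjusted p = 0.481 for ponatinib 3 mg/kg). With L-NAME the log2 fold change was -0.0098 (95% interval -0.32 to 0.30). Igfals and Igf1 were the most closely related pair of the axis, with Pearson's r = 0.73, permutation p = 1e-05, adjusted p = 0.00015, Spearman's rho = 0.67, permutation p = 1e-05, adjusted p = 0.00015. The relation was positive in 6 of 7 groups, from 0.93 among control livers to -0.36 among imatinib livers, and was 0.68 without the 2 farthest mice. Mouse 28 had the highest level of both genes among control livers, and mouse 49 the lowest of both with nilotinib 30 mg/kg.

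Igfbp2 (chromosome 1, 72824503 to 72852474, plus strand) encodes an IGF-binding protein that hepatocytes secrete. It rose 1.73-fold with imatinib and 1.76-fold with L-NAME. In control livers the lowest, median and highest levels were 133, 323 and 597 CPM. Imatinib livers had 358, 626 and 745 CPM, all 8 above the control median and 5 above every control (log2 fold change 0.79 ± 0.23 SE, adjusted p = 0.0197). L-NAME livers had 421, 525 and 1002 CPM, all 8 above the control median and 3 above every control (log2 fold change 0.82 ± 0.23 SE, adjusted p = 0.0129). With nilotinib 10 mg/kg the values were 339.6, 561 and 708 CPM (log2 fold change 0.66 ± 0.23 SE, adjusted p = 0.134). With nilotinib 30 mg/kg they were 279, 519.7 and 810.3 CPM (log2 fold change 0.61 ± 0.23 SE, adjusted p = 0.111). The 2 nilotinib groups overlapped the controls, and 7 or 8 of the 8 livers lay above the control median. With ponatinib 3 mg/kg the values were 279.7, 409.8 and 611 CPM (log2 fold change 0.31 ± 0.23 SE, adjusted p = 0.717). With ponatinib 10 mg/kg they were 133, 590.1 and 711 CPM (log2 fold change 0.58 ± 0.23 SE, adjusted p = 0.0887). One ponatinib 10 mg/kg liver, mouse 8, was at 132.6 CPM while 4 of its group were above every control.

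With the share of reads outside genes as a covariate, Igfbp2 was not called with imatinib (log2 fold change 0.69, adjusted p = 0.105) or L-NAME (0.68, adjusted p = 0.181). That covariate cannot be fully separated from treatment, and what underlay the lost calls was not tested. The imatinib call was also lost without control mouse 1 (0.73, adjusted p = 0.0515) or control mouse 40 (0.67, adjusted p = 0.0576), and the L-NAME call without L-NAME mouse 5 (0.68, adjusted p = 0.0537). Leaving out control mouse 22, the control with the most Igfbp2, brought the adjusted p of nilotinib 30 mg/kg to 0.0363 (0.78) and that of ponatinib 10 mg/kg to 0.0245 (0.74), the latter being 0.016 (0.72) or 0.0391 (0.67) without ponatinib mouse 8 or 18. Over the 56 mice Igfbp2 followed the summed level of the 12 hepatocyte markers (Pearson's r = 0.72, permutation p = 1e-05, adjusted p = 0.00015, Spearman's rho = 0.62, permutation p = 1e-05, adjusted p = 0.00015, group means removed, 60 gene and marker list relations). Within groups this r ran from -0.56 to 0.95, the former in the imatinib group, and it was 0.61 without the 2 farthest mice. That summed level was 84006, 120474 and 153929 CPM at the lowest, median and highest in control livers, 107830.3, 122188 and 150727 with imatinib and 97136, 105882 and 134569 with L-NAME, with log2 differences from control of 0.096 and -0.075 (exact permutation tests, adjusted p = 0.64 and 0.702). Of the 12 markers, 4 were called with imatinib (3 higher) and 7 with L-NAME (4 higher). Their part in the rise of Igfbp2 was not tested. In bulk liver, fewer cells of a type and less RNA per cell cannot be told apart.

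Igfbp3 (chromosome 11, 7206086 to 7213923, minus strand) encodes the binding protein that carries most IGF1 in blood and is made in liver mainly by non-parenchymal cells. It fell to 0.632 times the control level with imatinib and was called against control with no other treatment. Control livers had 27.7, 38.5 and 55.1 CPM at the lowest, median and highest, and imatinib livers 19.4, 22.6 and 29.5 CPM. The 8 imatinib livers all lay under the control median and 6 lay under every control (log2 fold change -0.66 ± 0.21 SE, adjusted p = 0.0363). Nilotinib 30 mg/kg gave 30.1, 40.5 and 58.9 CPM, and every one of its livers exceeded every imatinib liver. Imatinib was lower than nilotinib 30 mg/kg by a called difference (log2 fold change -0.88 ± 0.22 SE, adjusted p = 0.0101), the only one of the axis in the 6 comparisons made between treated groups, and one at unlike doses. Against control, nilotinib 10 and 30 mg/kg had log2 fold changes of 0.26 and 0.21, ponatinib 3 and 10 mg/kg -0.15 and 0.048, and L-NAME 0.077. Ponatinib mouse 8 had 8.36 CPM where its group's median was 41.4, and without it the log2 fold change of ponatinib 10 mg/kg was 0.20.

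The imatinib call of Igfbp3 against control held under all 7 other settings (log2 fold changes of -0.75 to -0.60, adjusted p from 0.0045 to 0.0434). It was lost in 8 of the 16 fits without 1 mouse (control mice 1, 12, 33 and 52, imatinib mice 6, 11, 27 and 39), where the log2 fold change was -0.65 to -0.57 and the adjusted p 0.0565 to 0.0918. Against nilotinib 30 mg/kg it was called in all 16 such fits (adjusted p from 0.00765 to 0.0323). Markers of other cell types moved with the imatinib group. The 12 stellate cell and fibroblast markers summed to 439, 846 and 1270.1 CPM at the lowest, median and highest in control livers and to 351, 454 and 537 CPM with imatinib (log2 difference -0.91, exact permutation test, adjusted p = 0.0224), with 3 of the 12 called and all 3 lower. Those 3 were the collagens Col3a1, Col1a2 and Col1a1, with means of 33.6, 17.5 and 12.5 CPM with imatinib. In control livers their means were 204, 89.4 and 101 CPM, so the summed fall lay largely in collagen transcripts. No other marker of the list was called. The 12 Kupffer cell and macrophage markers fell likewise (log2 difference -0.77, exact permutation test, adjusted p = 0.0224, 5 of 12 called, all lower), with adjusted p = 0.0746 when the list was read as the mean of log2 CPM. The 12 lymphocyte and granulocyte markers had a log2 difference of -0.64 (exact permutation test, adjusted p = 0.0448, and 0.324 as the mean of log2 CPM). With ponatinib 3 and 10 mg/kg the stellate markers had log2 differences of -0.72 and -0.84 (exact permutation tests, adjusted p = 0.0681 and 0.0681), where Igfbp3 had log2 fold changes of -0.15 and 0.048. The stellate markers called with ponatinib were again collagens, Col1a1 and Col1a2 at both doses and Col3a1 at 10 mg/kg, all lower. None of the 12 stellate markers was at 0 in any group, and their part in the fall of Igfbp3 was not tested.

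From mouse to mouse Igfbp3 rose and fell with those markers (Pearson's r = 0.67, permutation p = 1e-05, adjusted p = 0.00015, Spearman's rho = 0.60, permutation p = 1e-05, adjusted p = 0.00015, group means removed). Within groups r was -0.22 among imatinib livers and between 0.52 and 0.83 in the other 6 groups, and it was 0.55 without the 2 farthest mice. The 3 genes most like Igfbp3 over the 56 mice were Dcn (0.72), Col14a1 (0.71), Reln (0.70), by Pearson's r of log2 CPM with group means removed. Dcn and Reln are among the 12 stellate cell and fibroblast markers, so part of this likeness is the same measurement.

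**Figure D2:**
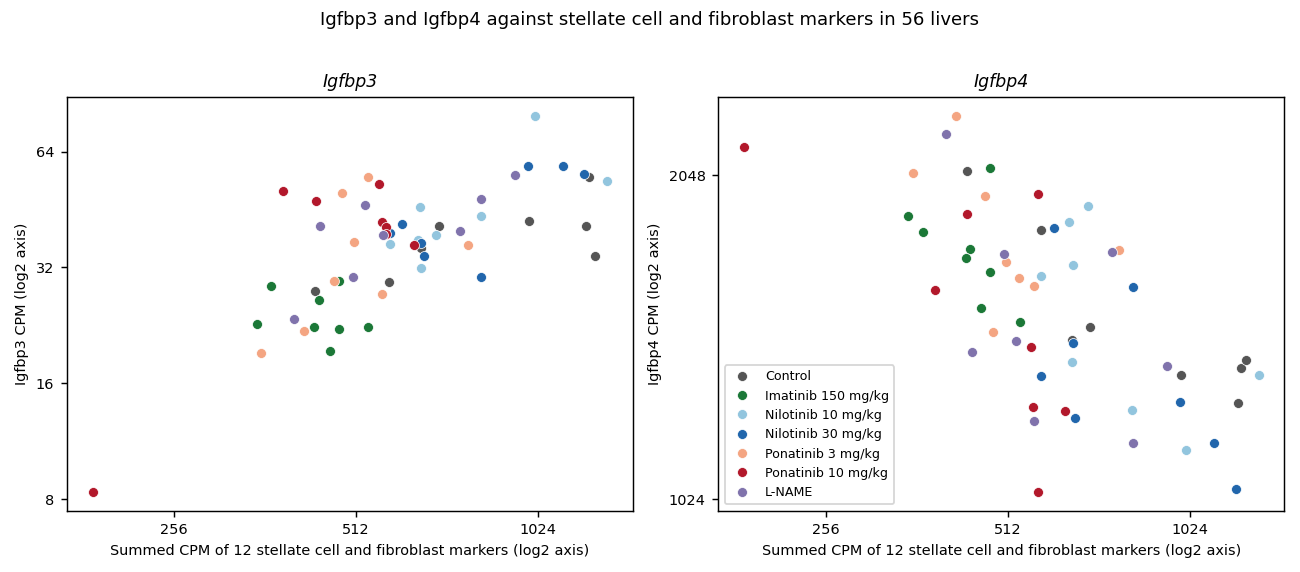
CPM of Igfbp3 (left) and Igfbp4 (right) against the summed CPM of 12 stellate cell and fibroblast markers in each of the 56 livers, on log2 axes, coloured by group. Igfbp3 rises and Igfbp4 falls along the marker axis, and ponatinib mouse 8, at 8.36 CPM of Igfbp3, lies apart at the lower left.

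Igfbp4 (chromosome 11, 99041244 to 99054392, plus strand), a binding protein that holds IGF1 away from its receptor, was called by edgeR in no comparison, and by limma with sample weights only between imatinib and nilotinib 30 mg/kg. Control livers had 1259, 1409 and 2068 CPM at the lowest, median and highest. All 8 livers with imatinib (1498, 1733 and 2082 CPM, log2 fold change 0.20 ± 0.13 SE, adjusted p = 0.394) and with ponatinib 3 mg/kg (1465, 1725 and 2324 CPM, log2 fold change 0.26 ± 0.13 SE, adjusted p = 0.519) exceeded the control median, with wide overlap. In the remaining groups the log2 fold change ran from -0.16 (nilotinib 30 mg/kg) to 0.051 (ponatinib 10 mg/kg). Igfbp4 moved with Igf1 (Pearson's r = 0.62, permutation p = 1e-05, adjusted p = 0.00015, Spearman's rho = 0.60, permutation p = 1e-05, adjusted p = 0.00015), positively in all 7 groups, and with Igfals (Pearson's r = 0.63, permutation p = 2e-05, adjusted p = 0.00018, Spearman's rho = 0.65, permutation p = 1e-05, adjusted p = 0.00015). It ran opposite to Igfbp3 (Pearson's r = -0.60, permutation p = 1e-05, adjusted p = 0.00015, Spearman's rho = -0.57, permutation p = 2e-05, adjusted p = 0.00022), with r between -0.81 and -0.49 in 6 groups and 0.16 among imatinib livers. Without the 2 farthest mice these 3 values of r were 0.58, 0.57 and -0.55. Igfbp4 was also opposed to the stellate markers in every group (r from -0.88 to -0.47 within groups, Pearson's r = -0.64, permutation p = 2e-05, adjusted p = 0.0002, Spearman's rho = -0.63, permutation p = 3e-05, adjusted p = 0.00027, and r = -0.57 without the 2 farthest mice). L-NAME mouse 5 shows the pattern in 1 liver, with the group's most Igfbp4 (2238 CPM), Igf1 (602.7 CPM), Igfals (160.3 CPM) and Igfbp2 (1002 CPM) and its least Igfbp3 (23.4 CPM).

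**Figure D3:**
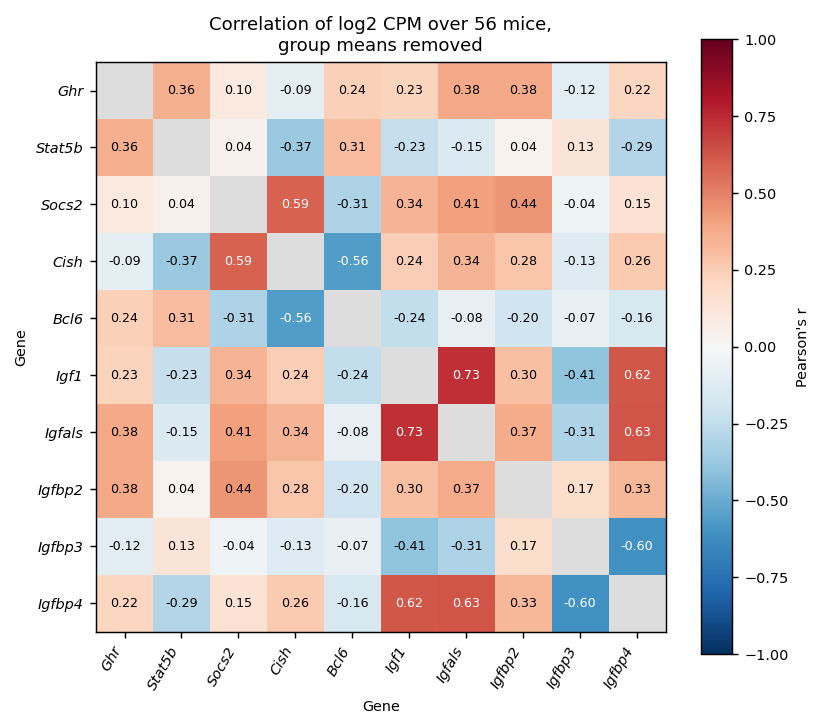
Pearson's r of log2 CPM between each pair of the 10 genes over 56 mice, with group means removed, on a colour scale from -1 (blue) to 1 (red). Igf1, Igfals and Igfbp4 form a positive block (r from 0.62 to 0.73), Igfbp3 is negative against Igfbp4 (-0.60), and Cish is positive with Socs2 (0.59) and negative with Bcl6 (-0.56).

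**Figure D4:**
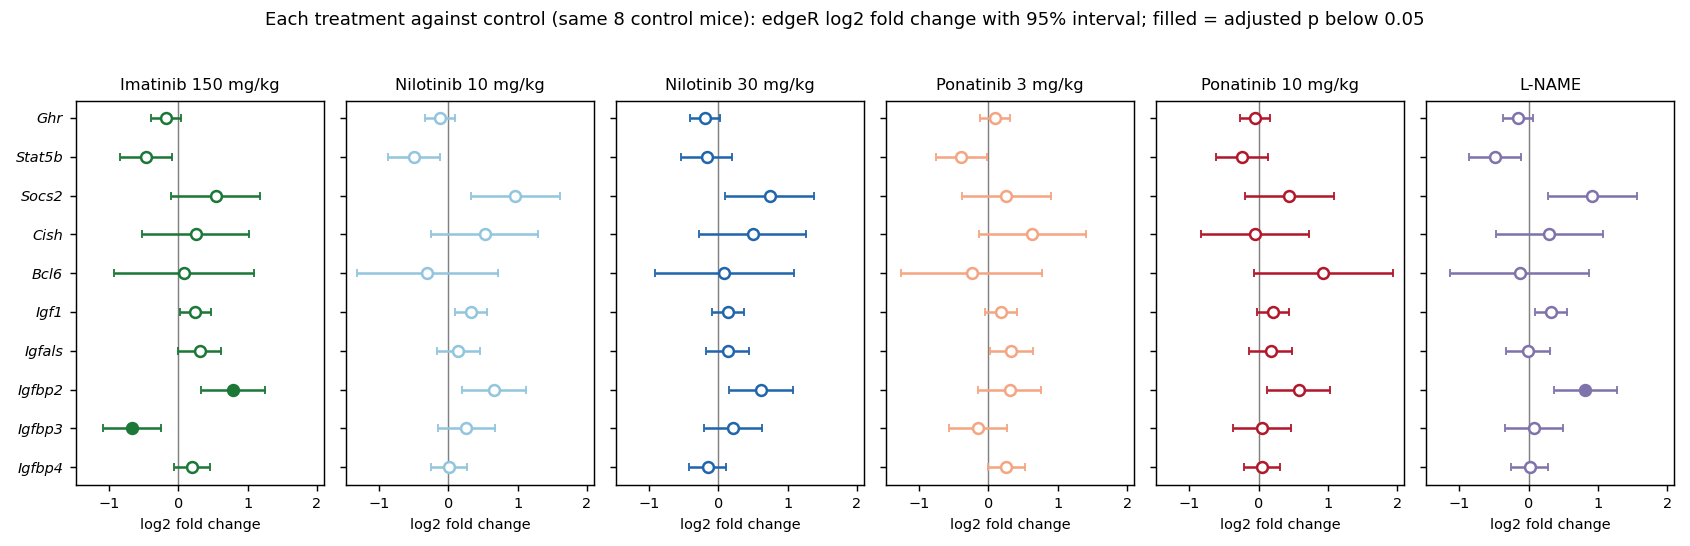
Log2 fold change of each gene against the same 8 control mice in the 6 treated groups, with 95% intervals from the SE, filled where the adjusted p was below 0.05. Only Igfbp2 (imatinib and L-NAME) and Igfbp3 (imatinib) are filled, and the intervals of Bcl6 and Cish are the widest.

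The drugs could be compared at 1 shared nominal dose, 10 mg/kg once a day, for ponatinib and nilotinib. No gene of the axis differed between these groups by edgeR (2.06% of all genes called), and 1 of 10, Bcl6, passed an unadjusted p below 0.05 (15.3% of all genes), with a log2 fold change of 1.24 (95% interval 0.22 to 2.25, adjusted p = 0.215). For Ghr the interval of the difference, ponatinib minus nilotinib, was -0.15 to 0.29, for Igf1 -0.34 to 0.12, for Igfals -0.28 to 0.34 and for Igfbp4 -0.22 to 0.31 on the log2 scale. For Igfbp2 it was -0.53 to 0.38, for Igfbp3 -0.63 to 0.20 and for Stat5b -0.11 to 0.63. Socs2 (-1.16 to 0.12) and Cish (-1.35 to 0.20) had wider intervals, so differences of 1 or more on the log2 scale are not excluded for them. The same nominal dose did not give the same blood level of each drug. At 10 mg/kg the study calculated a higher plasma exposure for nilotinib than for ponatinib.

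Neither drug given at 2 doses had a called difference between them. Between ponatinib 10 and 3 mg/kg 0 of 10 genes were called (1.39% of all genes), with 1 at an unadjusted p below 0.05 (Bcl6, 14.4% of all genes). Between nilotinib 30 and 10 mg/kg 0 of 10 were called (0.0% of all genes) and 0 passed an unadjusted p below 0.05 (5.67%). DESeq2 and limma also called 0 in both, and between the 2 drugs at 10 mg/kg. Between groups given unlike doses, ponatinib 10 mg/kg against nilotinib 30 mg/kg had 0 genes called (1.88%) and 0 at an unadjusted p below 0.05 (13.6%), and 0 by DESeq2 or limma. Ponatinib 10 mg/kg against imatinib had 0 called (1.08%) and 1 at an unadjusted p below 0.05 (10.7%). That gene was Igfbp3, which was higher with ponatinib (log2 fold change 0.71 ± 0.22 SE, adjusted p = 0.093). It was called without ponatinib mouse 8, the liver of that group with the least Igfbp3, whose removal enlarges the difference by construction. Imatinib against nilotinib 30 mg/kg had the 1 call of Igfbp3 given above (3.59%). Limma with sample weights called 2 there, where it called 1075 of 14314 genes. The other was Igfbp4, which was higher with imatinib (log2 fold change 0.36 ± 0.13 SE, adjusted p = 0.134 by edgeR).

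Around the 10 genes, the signalling partners of the receptor that passed the test in the main edgeR fit were all lower than in control. Whether their calls hold under the other settings was not tested. With the share of reads outside genes as a covariate, calls over all genes fell from 1471 to 653 with imatinib. That covariate cannot be fully separated from treatment. The calls fell from 826 to 96 with nilotinib 30 mg/kg, 1877 to 369 with ponatinib 10 mg/kg and 1688 to 258 with L-NAME. Of 18 genes of growth hormone receptor signalling tested, 3 were called with imatinib (10.3% of all genes), 1 with nilotinib 30 mg/kg (5.77%), 2 with ponatinib 10 mg/kg (13.1%) and 2 with L-NAME (11.8%), so that apart from imatinib the counts were near or under the share of all genes. Ptpn11, the phosphatase SHP2, was lower with all 4, namely imatinib (log2 fold change -0.54, adjusted p = 0.00773), nilotinib 30 mg/kg (log2 fold change -0.46, adjusted p = 0.0335), ponatinib 10 mg/kg (log2 fold change -0.44, adjusted p = 0.0263) and L-NAME (log2 fold change -0.68, adjusted p = 0.00072). Imatinib also lowered Adam17, the protease that sheds the receptor (log2 fold change -0.83, adjusted p = 0.0046), and Stat3 (log2 fold change -0.51, adjusted p = 0.047). Ponatinib 10 mg/kg lowered the adaptor Shc1 (log2 fold change -0.36, adjusted p = 0.0445), and L-NAME the exchange factor Sos1 (log2 fold change -0.57, adjusted p = 0.0087). The median log2 fold change of the 18 genes was -0.33 with imatinib and -0.20 with L-NAME. Of the 18, edgeR called 0 with the lower doses of nilotinib and ponatinib, where 3 and 2 passed an unadjusted p below 0.05. The comparisons share their control mice, so calls of the same gene in several groups are not independent. The share of all called genes that were lower is not given here.

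Of 16 other genes of IGF ligands, receptors and binding proteins, 12 were tested, and every call was again toward lower levels. For these genes and the transcription factors below, too, the calls come from the main fit, and the other settings were not tested. Igf2r, the receptor that clears IGF2, fell with imatinib (log2 fold change -0.81, adjusted p = 0.00061), nilotinib 30 mg/kg (log2 fold change -0.55, adjusted p = 0.0266), ponatinib 10 mg/kg (log2 fold change -0.54, adjusted p = 0.0183) and L-NAME (log2 fold change -0.60, adjusted p = 0.00824). The insulin receptor substrates Irs1 and Irs2 fell with nilotinib 30 mg/kg (log2 fold change -0.60, adjusted p = 0.0223 and log2 fold change -1.20, adjusted p = 0.045) and with L-NAME (log2 fold change -0.52, adjusted p = 0.0327 and log2 fold change -1.26, adjusted p = 0.0198). Imatinib lowered Igfbp5 (log2 fold change -1.45, adjusted p = 0.0183) and the protease Htra1 (log2 fold change -1.96, adjusted p = 0.0241), 2 genes with mean levels of 6.95 and 1.24 CPM with imatinib against 18.9 and 4.93 CPM in control. The calls numbered 3 of 12 with imatinib (10.3% of all genes), 3 with nilotinib 30 mg/kg (5.77%), 1 with ponatinib 10 mg/kg (13.1%) and 3 with L-NAME (11.8%), the 1 with ponatinib being under the share of all genes. Of the 12, edgeR called 0 with the lower doses of nilotinib and ponatinib, with 4 and 3 at an unadjusted p below 0.05. Among 16 transcription factors of growth hormone-regulated liver genes, Hnf4a fell with nilotinib 30 mg/kg (log2 fold change -0.53, adjusted p = 0.00643) and L-NAME (log2 fold change -0.47, adjusted p = 0.00883) and Rxra with nilotinib 30 mg/kg (log2 fold change -0.60, adjusted p = 0.00203). These are 2 of 16 where 5.77% of all genes were called and 1 of 16 where 11.8% were, and edgeR called 0 with the other 4 treatments, where 3 (imatinib), 3 (nilotinib 10 mg/kg), 0 (ponatinib 3 mg/kg) and 3 (ponatinib 10 mg/kg) passed an unadjusted p below 0.05.

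Genes known to differ between male and female liver were read from the same fits, and their calls were likewise not tested under the other settings. With imatinib, 5 of 23 female-biased genes tested were called, where 10.3% of all genes were, and all 5 were higher, among them the cytochromes P450 Cyp2b10 (log2 fold change 2.96, adjusted p = 0.00151), Cyp3a44 (log2 fold change 3.01, adjusted p = 0.00393) and Cyp4a14 (log2 fold change 0.85, adjusted p = 0.00762) and the sulfotransferase Sult2a1 (log2 fold change 1.96, adjusted p = 0.0122). The median log2 fold change of the 23 was 0.76, against -0.022 for all genes. Cyp2b10 and the Cyp3a family are also known targets of the drug-sensing receptors CAR and PXR. Ponatinib 10 mg/kg raised the transporter Slc22a27 (log2 fold change 0.63, adjusted p = 0.00708) and Cyp3a44 (log2 fold change 2.26, adjusted p = 0.0246), 2 of 23 where 13.1% of all genes were called. With nilotinib 10 and 30 mg/kg, ponatinib 3 mg/kg and L-NAME edgeR called 0 of 23, and 2, 1, 3 and 1 passed an unadjusted p below 0.05. Of 17 male-biased genes tested, imatinib raised Cyp2d9 (log2 fold change 0.97, adjusted p = 0.0081) and Gstp1 (log2 fold change 0.88, adjusted p = 0.0122) and lowered C8b (log2 fold change -1.01, adjusted p = 0.0147). Ponatinib 10 mg/kg raised Mup3 (log2 fold change 0.73, adjusted p = 0.0252) and lowered Mup20 (log2 fold change -1.65, adjusted p = 0.0448) and Ugt2b1 (log2 fold change -0.43, adjusted p = 0.0319), and L-NAME lowered Ugt2b1 (log2 fold change -0.52, adjusted p = 0.0101). These were 3 of 17 with imatinib (10.3% of all genes), 3 with ponatinib 10 mg/kg (13.1%) and 1 with L-NAME (11.8%), the last under the share of all genes. With both nilotinib doses and ponatinib 3 mg/kg edgeR called 0 of 17, with 0, 1 and 1 at an unadjusted p below 0.05. The calls of the male-biased list therefore went both ways. The Mup, Cyp3a, Cyp4a and Sult2a genes have near-identical copies, and reads that aligned to several places were counted on none, so their counts are uncertain. Some also varied widely between mice. Mup20 had 37.6 ± 43.3 CPM in control livers (SD) and 11.9 ± 6.92 with ponatinib 10 mg/kg. Cyp3a44 had 67.6 ± 76.1 CPM with imatinib and 8.54 ± 8.15 in control livers.

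Outside these lists, the 3 genes whose levels followed each gene of the axis most closely over the 56 mice, with group means removed, were found among all genes tested, by Pearson's r and without a test. They were Adipor2 (0.80), Cyp2j5 (0.76), Dpyd (0.75) for Ghr, Cluh (0.79), Mcu (0.76), Pcdh1 (0.76) for Stat5b, Ces3b (0.79), Igfals (0.73), Adtrp (0.71) for Igf1 and, with only 2 given, Igf1 (0.73), Ces3b (0.73) for Igfals. For Igfbp2 they were Mpc2 (0.79), Rbp4 (0.79), Ces2a (0.78), and for Igfbp4 Slc9a3r1 (0.82), Por (0.78), Naa60 (0.76). For the feedback genes they were Nfx1 (0.68), Sun2 (0.63), Cbx7 (0.62) for Socs2 and Phlda1 (0.69), Csrnp1 (0.67), Mt1 (0.66) for Cish, and for Bcl6 Tsc22d1 (0.57), Rmdn2 (0.57), Chrdl1 (0.57), the lowest values of the 10. Igf1 and Igfals were thus among each other's 3 nearest genes, and Ces3b was near both.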

How the data were processed

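Poly(A) RNA of 56 livers was sequenced on a NextSeq 500 from libraries of a kit that does not mark strand. The authors aligned the reads to GRCm38 with TopHat2 2.0.14 and Bowtie2 2.1.0, with SAMtools 0.1.18, and deposited read counts per Ensembl gene made with HTSeq-count 0.6.1p1, in which reads that align to several genes are counted on none. The strand setting is not given in the sources used here, and the study's own cut-off is described there as a Bayes p-value. The study's methods do not describe the L-NAME group, whose treatment comes from the labels.

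From the counts, 45513 identifiers were matched to symbols through GENCODE vM21 (44585 matched), rows that name no gene were set aside, and their reads outside genes were given as a share of uniquely aligned reads. Genes were filtered with filterByExpr and scaled by TMM, and all 56 mice entered 1 quasi-likelihood fit by group (R 4.3.3, edgeR 4.0.16), with Benjamini-Hochberg adjustment over 14314 genes and calls at an adjusted p below 0.05. The SE is the log2 fold change divided by the root of F, and 95% intervals are normal approximations from it. Python 3.11.15 with numpy 2.4.6 gave exact permutation tests of 8 against 8 mice (12870 splits, two-sided, smallest p 0.000155) and relations over mice by 100000 permutations within groups, two-sided, on log2 CPM with a prior count of 2. The fits were tested on simulated data. No 2 libraries of a group were identical or within sampling noise of each other. P-values measure the spread between the mice as labelled.

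All 10 genes were reported in every comparison with control. Of the pathway and sex-biased lists, up to 4 called genes per comparison with the smallest adjusted p were named, and for likeness the 3 genes with the highest r. One gene near Igfals is not reported here. The members and lists were chosen with earlier results of these data known. Alternatives were RLE scaling, no filter on low counts, DESeq2 1.42.0, limma 3.58.1 voom with sample weights, an unadjusted p below 0.01, the share of reads outside genes as a covariate, only the 2 groups compared, each mouse left out, and, chosen after seeing the data, leaving out the 3 mice with over 14% of reads outside genes. The relations between genes and marker lists were also added after seeing the data.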

Additional observations from a re-analysis of the deposited data

Results flagged for a closer look

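In 4 of 70 combinations of gene and group, 1 liver lay apart from the other 7 by Dixon's ratio on log2 CPM, where chance marks about 1 in 20. Igfbp3 was 8.36 CPM in ponatinib 10 mg/kg mouse 8, against a group median of 41.4 (ratio 0.801). Ghr was 247 CPM in nilotinib 30 mg/kg mouse 49 (group median 396, ratio 0.54). Cish was 9.90 CPM in nilotinib 10 mg/kg mouse 3 (median 35.6, ratio 0.624) and 17.5 CPM in ponatinib 3 mg/kg mouse 47 (median 43.2, ratio 0.543). Igfbp3 also differed between 2 treated groups, at unlike doses, with a log2 fold change of -0.88 for imatinib against nilotinib 30 mg/kg (edgeR, adjusted p = 0.0101).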

How the results depend on the processing

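Igfbp3 was called lower with imatinib against control under all 7 other settings and against nilotinib 30 mg/kg under all 7. In the fits without 1 mouse its call against control held in 8 of 16. The Igfbp2 calls held in 14 of 16 such fits with imatinib and 15 of 16 with L-NAME. Igfbp2 lost both calls when the share of reads outside genes, which cannot be fully separated from treatment, was a covariate. The number of the 10 genes called became 1 with imatinib and 0 with L-NAME under that covariate. Limma with sample weights called 4 with imatinib, 4 with nilotinib 10 mg/kg, 1 with nilotinib 30 mg/kg, 1 with ponatinib 10 mg/kg, 4 with L-NAME and 2 between imatinib and nilotinib 30 mg/kg. DESeq2 called 2 with nilotinib 10 mg/kg and 3 with L-NAME, RLE scaling 3 and the fit of only the 2 groups 2 with L-NAME. Over all genes with L-NAME, these settings called 2079 of 24040, 1715 of 14314 and 2440 of 12866. At an unadjusted p below 0.01, the cut-off of the study, 3 genes passed with nilotinib 10 mg/kg, 3 with L-NAME and 1 (Igfbp3) between ponatinib 10 mg/kg and imatinib. The share of all genes at that cut-off is not given here, so these counts cannot be read as above or below it. Leaving out each mouse in turn gave 0 to 2 calls with imatinib, 0 to 1 with nilotinib 30 mg/kg and 0 to 1 with ponatinib 10 mg/kg. It gave 0 to 3 with L-NAME and 0 to 1 between ponatinib 10 mg/kg and imatinib. Calls over all genes were not counted in those fits, so these numbers, too, cannot be set against a share of all genes. The causes of these shifts were not tested.

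Log2 fold changes that turned their sign were all of genes not called. They were, for Bcl6 with imatinib, -0.25 without the mice over 14% of reads outside genes and -0.29 with limma. Cish was -0.066 (imatinib) and -0.052 (nilotinib 30 mg/kg) with limma, and with ponatinib 10 mg/kg 0.042 with the covariate, 0.045 without those mice and 0.064 with limma. Igfbp4 was -0.0023 with nilotinib 10 mg/kg without the filter, and with L-NAME -0.011 without those mice and -0.029 with limma. Igfbp3 was -0.097 (ponatinib 10 mg/kg) and -0.053 (L-NAME) with the covariate, and Igfals with L-NAME 0.0086 with RLE scaling and 0.0087 with DESeq2. Without single mice, Bcl6 ran from -0.61 to 0.42 (imatinib), -0.49 to 0.036 and -0.085 to 0.42 (nilotinib 10 and 30 mg/kg), -0.64 to 0.093 (ponatinib 3 mg/kg) and -0.47 to 0.21 (L-NAME). Cish ran from -0.21 to 0.50 (imatinib) and -0.27 to 0.20 (ponatinib 10 mg/kg), and Igfals from -0.081 to 0.096 (L-NAME). Igfbp3 ran from -0.022 to 0.20 (ponatinib 10 mg/kg) and -0.0065 to 0.17 (L-NAME), and Igfbp4 from -0.048 to 0.085 (nilotinib 10 mg/kg), -0.031 to 0.13 (ponatinib 10 mg/kg) and -0.081 to 0.093 (L-NAME). Read as the mean of log2 CPM, the marker difference from control was 0.032 for hepatocytes with nilotinib 10 mg/kg and 0.10 with L-NAME, 0.0047 for stellate cells with nilotinib 30 mg/kg, -0.046 for endothelium with imatinib, and -0.11 and 0.039 for cholangiocytes with nilotinib 10 and ponatinib 10 mg/kg.

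Over all genes, the calls with the covariate against those of the main setting were 653 against 1471 (imatinib), 258 against 1688 (L-NAME), 13 against 202 (nilotinib 10 mg/kg), 96 against 826 (nilotinib 30 mg/kg), 369 against 1877 (ponatinib 10 mg/kg), 0 against 199 (ponatinib 10 mg/kg versus ponatinib 3 mg/kg). They were 190 against 295 (ponatinib 10 mg/kg versus nilotinib 10 mg/kg), 37 against 199 (ponatinib 10 mg/kg versus ponatinib 3 mg/kg) without the 3 mice over 14%. They were 1376 against 826 (nilotinib 30 mg/kg), 73 against 154 (ponatinib 10 mg/kg versus imatinib), 48 against 295 (ponatinib 10 mg/kg versus nilotinib 10 mg/kg), 126 against 269 (ponatinib 10 mg/kg versus nilotinib 30 mg/kg), 32 against 199 (ponatinib 10 mg/kg versus ponatinib 3 mg/kg), 0 against 6 (ponatinib 3 mg/kg) with only the 2 groups compared. They were 3327 against 1471 (imatinib), 1075 against 514 (imatinib versus nilotinib 30 mg/kg), 3737 against 1688 (L-NAME), 1240 against 202 (nilotinib 10 mg/kg), 2349 against 826 (nilotinib 30 mg/kg), 3743 against 1877 (ponatinib 10 mg/kg), 762 against 269 (ponatinib 10 mg/kg versus nilotinib 30 mg/kg), 995 against 199 (ponatinib 10 mg/kg versus ponatinib 3 mg/kg), 571 against 6 (ponatinib 3 mg/kg) with limma. They were 512 against 202 (nilotinib 10 mg/kg), 2 against 0 (nilotinib 30 mg/kg versus nilotinib 10 mg/kg), 522 against 295 (ponatinib 10 mg/kg versus nilotinib 10 mg/kg), 427 against 269 (ponatinib 10 mg/kg versus nilotinib 30 mg/kg), 433 against 199 (ponatinib 10 mg/kg versus ponatinib 3 mg/kg), 46 against 6 (ponatinib 3 mg/kg) with DESeq2. They were 127 against 202 (nilotinib 10 mg/kg), 100 against 199 (ponatinib 10 mg/kg versus ponatinib 3 mg/kg), 14 against 6 (ponatinib 3 mg/kg) without the filter on low counts. No paired analysis was possible because each mouse has a number of its own and no number is shared between groups. Depth limits Bcl6, Socs2 and Cish most, with as few as 20, 21 and 51 reads in a liver.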
